A study of Mus musculus with 7 samples.

Results

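Genes of the NRF2 antioxidant programme were followed in splenic type 1 conventional dendritic cells (cDC1), the dendritic cells that cross-present antigen to CD8 T cells, with and without a Cre that deletes Opa1. The genes were chosen by name: 37 regulators, targets and antioxidant enzymes, of which 33 had a named probe set and were measured among 19505 genes. Prdx5, Prdx6, G6pdx and Tkt had none and were not analysed here. Where a gene had several probe sets, the brightest over the 7 arrays stood for it.

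All mice were C57BL/6 and bore B16-OVA tumors, that is, B16 mouse melanoma cells that express ovalbumin. The 3 arrays of the first group came from splenic cDC1 of mice labelled only as WT. The 4 arrays of the second, called KO here, came from CD11c-Cre; OPA1 flox mice, in which the promoter of CD11c, an integrin of dendritic cells and of some macrophages, drives Cre against a floxed Opa1 gene. OPA1 is the GTPase that fuses inner mitochondrial membranes and shapes cristae. Age and sex, whether animals were pooled, and whether WT mice carried the floxed allele are not stated in the labels. Nor is it stated which arrays stand for separate mice; a p-value here weighs a difference against array-to-array spread that could be technical.

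NRF2, encoded by Nfe2l2, is a transcription factor that KEAP1 holds in the cytosol and hands to a ubiquitin ligase. When electrophiles or peroxides modify cysteines of KEAP1, NRF2 accumulates, pairs with a small MAF protein such as MAFG and binds antioxidant response elements near its target genes. Those targets make glutathione and NADPH, reduce thioredoxin and peroxides, and handle heme, iron and quinones. In dendritic cells these enzymes buffer the oxidants made by mitochondria and by the phagosomal oxidase.

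The targeted gene and the cell type markers set the frame for every value below. Values of a gene are given in replicate order, WT 1 to 3 and then KO 1 to 4. Opa1 read 8.14, 8.80 and 9.15 in WT and 7.70, 7.10, 6.85 and 8.24 in KO, a difference of -1.22 with a standard error of 0.36 (limma, adjusted p = 0.223; exact two-sided permutation p = 0.114, smallest possible 0.0571). KO 4 thus lay above WT 1, and groups are named as the arrays are labelled; probe positions relative to the floxed part were not analysed here. WT 1 and WT 2 stood apart from the other 5 arrays: they correlated with them across genes, which are not replicates, at 0.924 to 0.954, and the other 5 among themselves at 0.988 to 0.993. Of 14 melanocyte and melanoma markers 12 did not overlap between the groups, all lower in KO, and the mean of the list was 11.77, 12.02 and 9.40 on WT 1 to 3 against 7.64 to 8.31 on the KO arrays. Their summed linear signal was 19491 to 84956 in WT and 10793 to 12304 in KO, and at most 4 of the 14 were at or under the median of the negative control probe sets, on KO 4. The mean of 14 cDC1 markers was 10.90, 9.37 and 11.72 in WT and 11.76 to 11.84 on KO arrays, with none at or under the control median. Their summed linear signal was 17255 to 65069 in WT and 65737 to 68717 in KO. The cDC1 label therefore held for WT 3 and the KO arrays by these markers and less so for WT 1 and, most of all, WT 2, where Cd8a read 7.89 and 6.96 against 12.11 on WT 3. WT 1 and WT 2 are called WT only as they are labelled. What cells they held, and whether the samples match their labels, was not tested, and every WT mean contains them. Differences with all 7 arrays are therefore followed by those with WT 3 alone against KO for the genes described. WT 3 also carried more melanocyte signal than any KO array, with Pmel at 11.62 against 7.99 to 9.75 in KO. The comparison with WT 3 alone is thus not free of that signal. The part of the melanocyte signal in these results, those against WT 3 included, was not tested. In such bulk samples, fewer cells of a type and less RNA per cell cannot be told apart.

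Over the 33 genes, KO values were on balance lower than WT values, and the differences were widest against WT 1 and WT 2. The mean was lower in KO for 21 of 33 genes (63.6%), against 40.1% of all genes, and the median difference, KO minus WT, was -0.16 against 0.06 over all genes, in log2 units. A measured difference of -1 or less was found for 3 genes, Gsta4, Me1 and Gstm1 (9.09%, against 3.61% of all genes), of which Me1 was at background on all KO arrays and Gstm1 on WT 3 and KO 1; none of the 33 was higher by 1 or more, against 0.805% of all genes. No gene passed an adjusted p of 0.05 in limma among the 33 or among all 19505 (0%). At an unadjusted p under 0.05 limma gave 11 lower and 1 higher of the 33, 33.3% and 3.03%, against 10.6% and 8.98% of all genes. In 4 genes (12.1%, against 5.92% of all) every KO value lay below every WT value: Gsta4, Txnrd1, Srxn1 and Me1. In 1 gene, Osgin1 (3.03%, against 7.85% of all), every KO value lay above.

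**Figure D1:**
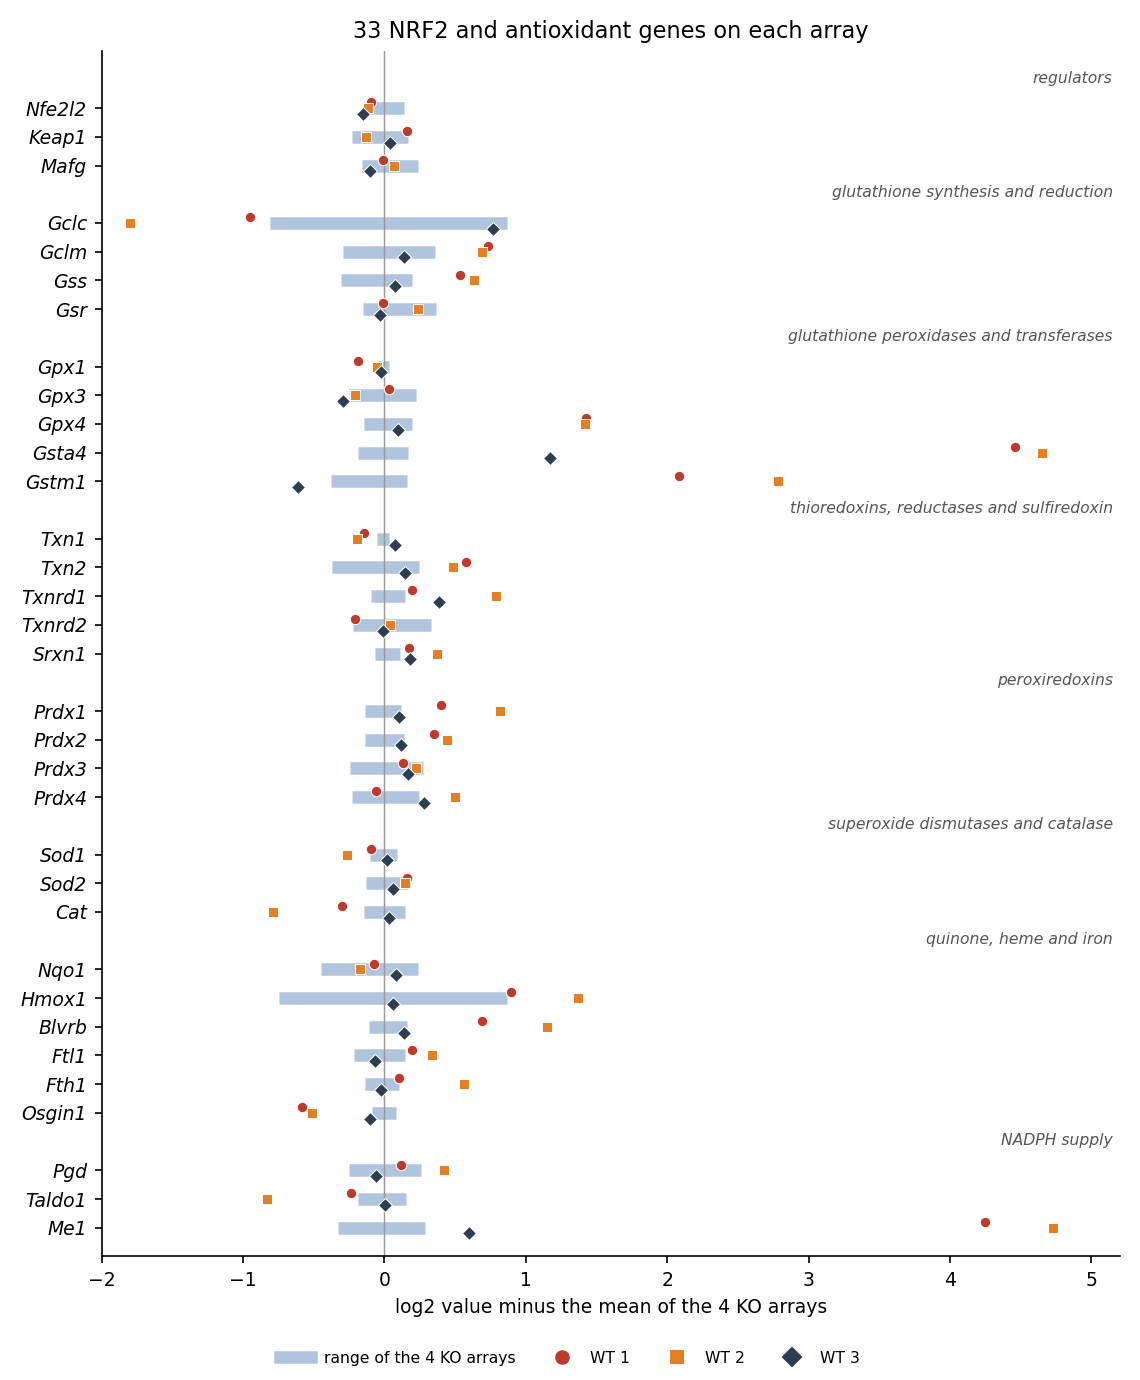
Log2 value of the 33 measured genes on WT 1 (circle), WT 2 (square) and WT 3 (diamond), each minus the mean of the 4 KO arrays; the bar is the range of the KO arrays around that mean. WT 3 lies inside the KO bar for 23 genes, while WT 1 and WT 2 lie far to the right for Gsta4, Me1, Gstm1 and Gpx4 and to the left for Gclc.

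Taken array by array, WT 2 lay above all 4 KO arrays for 17 genes (51.5%, against 28.1% of all genes) and below them for 8 (24.2%, against 42.1%). WT 1 lay above for 15 (45.5%, against 28.3%) and below for 6 (18.2%, against 33.6%). WT 3 lay above the KO range for 6 genes (18.2%, against 18.1% of all genes), below it for 4 (12.1%, against 24.2%) and within it for 23 (69.7%, against 57.7%). Its 6 genes above were Gsta4, Txn1, Txnrd1, Srxn1, Prdx4 and Me1, and its 4 below were Nfe2l2, Gpx3, Gstm1 and Osgin1. With WT 3 alone against KO, 22 of 33 means were lower in KO (66.7%, against 44.7% of all genes), the median difference was -0.07 against 0.02, and 0 genes passed in limma (0% of all genes). WT 3 is then a single array that limma assumes to vary like the KO arrays. Without WT 3, limma called 8 genes lower and 3 higher, 24.2% and 9.09%, where 13.8% and 11.4% of all genes were called. With array weights in limma 7 were called lower and 1 higher (21.2% and 3.03%), against 12.6% and 10.3% of all genes.

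**Figure D2:**
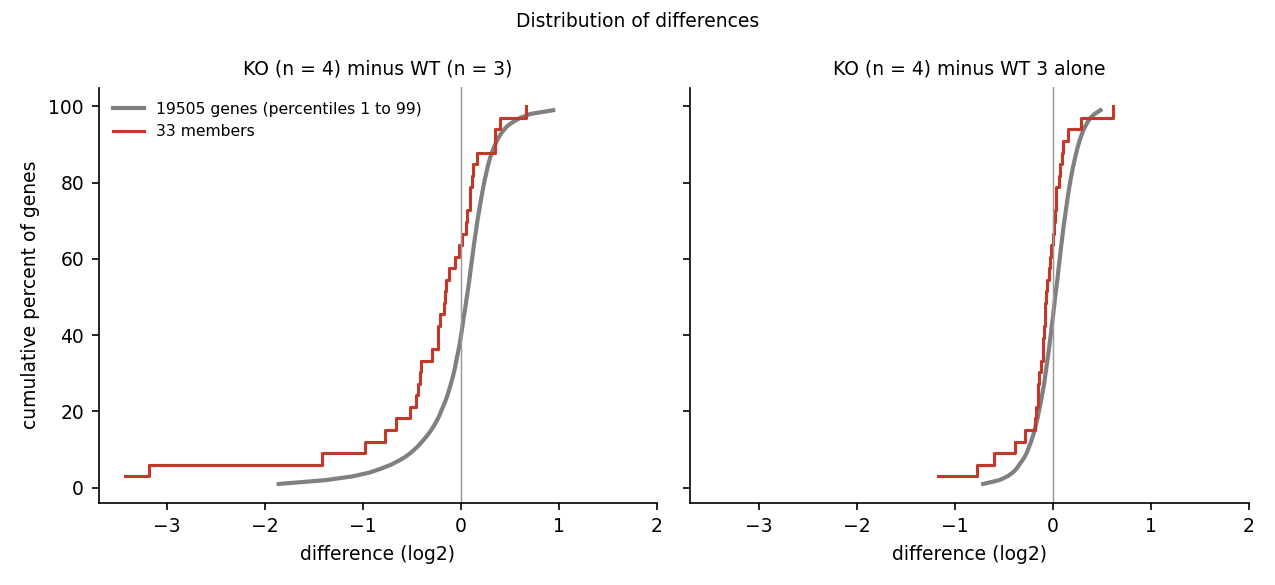
Cumulative percent of genes (y) by the log2 difference (x) for the 33 genes (steps) and for all 19505 genes (smooth line, percentiles 1 to 99), with KO minus the mean of 3 WT arrays on the left and KO minus WT 3 alone on the right. On the left the 33 genes reach -3.43 and their median is -0.16; on the right the lowest is -1.17 and the median -0.07.

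Antioxidant response elements were looked for at the starts of these genes, since the list holds NRF2 targets. It also holds regulators and antioxidant enzymes that were not chosen for that control. RefSeq promoter windows (GRCm38.p6, 250 bases before to 50 after each start) were at hand for 32 of the 37 genes, in 42 windows. The motif searched was the element's core, TGACNNNGC, on both strands; with TCA in its open positions it also contains the AP-1 site TGACTCA. It was found in 10 of 42 windows (23.8%), against 12.4% of all 32851 windows: 1 each of Nfe2l2, Mafg, Gclm, Txnrd1, Srxn1, Prdx1, Sod1, Pgd, Me1 and the unmeasured G6pdx. Of 29 measured genes with a window, 9 held a match and had a median difference of -0.24, with 6 lower in KO; the 20 without one had a median of -0.14, with 12 lower. A match here is a description of letters, not a bound site. The starts of 5 genes that the results turn on follow, 5′ to 3′ on the gene's strand: 4 with a match, in capitals, and Osgin1, whose window had none. They lie at chr9:86695905-86696114 (minus strand, from -200 to 10 around the start), chr3:122245357-122245556, chr4:116685399-116685598, chr10:82859006-82859205 and chr8:119436947-119437146 (plus strand, -200 to -1). For Me1 and Txnrd1, which have several starts, the one with the match is shown, and the others held none.
Me1: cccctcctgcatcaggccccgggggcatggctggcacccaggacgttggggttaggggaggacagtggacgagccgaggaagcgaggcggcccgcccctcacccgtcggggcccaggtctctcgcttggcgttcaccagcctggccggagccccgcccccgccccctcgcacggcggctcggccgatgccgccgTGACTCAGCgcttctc
Gclm: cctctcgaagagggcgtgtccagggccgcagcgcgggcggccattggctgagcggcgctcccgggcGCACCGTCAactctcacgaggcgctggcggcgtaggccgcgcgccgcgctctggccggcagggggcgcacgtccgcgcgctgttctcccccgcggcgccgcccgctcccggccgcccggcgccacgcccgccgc
Prdx1: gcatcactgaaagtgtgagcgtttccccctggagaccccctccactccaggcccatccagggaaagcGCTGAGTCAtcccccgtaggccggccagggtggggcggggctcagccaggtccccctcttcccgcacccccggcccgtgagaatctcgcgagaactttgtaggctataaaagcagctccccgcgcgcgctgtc
Txnrd1: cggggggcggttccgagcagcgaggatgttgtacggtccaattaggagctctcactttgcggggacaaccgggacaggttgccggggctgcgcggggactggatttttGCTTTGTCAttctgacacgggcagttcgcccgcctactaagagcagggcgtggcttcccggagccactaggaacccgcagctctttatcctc
Osgin1: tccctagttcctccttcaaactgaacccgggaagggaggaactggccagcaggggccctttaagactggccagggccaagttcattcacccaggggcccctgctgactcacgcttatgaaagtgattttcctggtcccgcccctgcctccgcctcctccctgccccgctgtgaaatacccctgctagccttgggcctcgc
In Me1 the match TGACTCAGC spans the start itself, from base -6 to 3. In Prdx1 the same letters lie on the opposite strand at -133 to -125, so that the line above shows their complement. The matches of Gclm, TGACGGTGC at -134 to -126, and Txnrd1, TGACAAAGC at -92 to -84, are also on the opposite strand. The Osgin1 line holds the AP-1 site TGACTCA, but GC does not follow it directly, so it is not a match and is not in capitals.

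The regulators differed by at most 0.12 between group means, and none passed. Nfe2l2 (gene 18024), the factor itself, read 8.13, 8.11 and 8.07 in WT and 8.36, 8.12, 8.28 and 8.13 in KO, a difference of 0.12 with a standard error of 0.10 (limma, adjusted p = 0.5), and of 0.15 against WT 3. The groups overlapped narrowly, with only WT 1 reaching the lowest KO arrays, and with median centring or quantile normalization no WT array reached the lowest KO array. Keap1 (gene 50868), its inhibitor, read 10.27, 9.98 and 10.15 in WT and 10.01, 10.27, 10.28 and 9.88 in KO. Its difference of -0.02 (-0.04 against WT 3) had a standard error of 0.14 and turned to 0.03 with median centring and 0.04 with quantile normalization. Mafg, the DNA-binding partner, differed by 0.01 (0.09 against WT 3) and all 3 WT values lay inside its KO range.

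Among the enzymes that make and recycle glutathione, 3 of 4 read lower in KO and none passed, and the 2 subunits of the rate-limiting ligase had differences of opposite sign. Gclm (gene 14630), the modifier subunit of glutamate-cysteine ligase, read 8.97, 8.93 and 8.38 in WT and 7.95, 8.41, 8.60 and 8.0 in KO. Its difference was -0.52 ± 0.21 (SE; limma, adjusted p = 0.244). Both WT 1 and WT 2 exceeded the KO range and WT 3 fell within it, -0.15 from the KO mean (KO minus WT 3). Gclc (gene 14629), the catalytic subunit, read 9.97, 9.12 and 11.69 in WT and 11.25, 10.11, 10.53 and 11.79 in KO. Here WT 1 and WT 2 lay below every KO array, while WT 3 was near the top of the KO range. The difference of 0.66 ± 0.62 (SE; limma, adjusted p = 0.546) was 1.38 without WT 3 and turned to -0.77 against WT 3 alone. Gss, glutathione synthetase, differed by -0.42, and by -0.08 against WT 3, which lay inside the KO range. Gsr, which reduces oxidised glutathione, differed by -0.06 (0.03 against WT 3) and its WT arrays all lay within the KO range.

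Among the groups of members, the glutathione-using enzymes had the largest median WT standard deviation, 0.77. The single member with the largest was Me1, at 2.26, in the NADPH group. Gsta4 (gene 14860), a glutathione transferase that conjugates the lipid peroxidation product 4-hydroxynonenal, read 11.61, 11.80 and 8.32 in WT and 7.32, 7.32, 7.0 and 6.96 in KO. All WT arrays were above all KO arrays, WT 1 and WT 2 by far the most. Its difference of -3.43 ± 0.76 (SE), a WT level 10.8 times that of KO on these means, had an adjusted p of 0.223 (limma). The KO values lay close above the negative control medians of 6.49 to 6.88 on those arrays, so that fold rests on a KO level near background. Against WT 3 alone it was -1.17 (limma, unadjusted p = 0.000272, adjusted p = 0.38), and without WT 3 -4.56 (limma, adjusted p = 9.15e-07).

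Gstm1 (gene 14862), a transferase of the mu class, read 9.32, 10.02 and 6.63 in WT and 6.86, 7.33, 7.37 and 7.40 in KO. WT 1 and WT 2 were above, and WT 3 below, every KO array, so the difference of -1.42 ± 0.70 (SE; limma, adjusted p = 0.29) turned to 0.61 against WT 3 alone. WT 3 and KO 1 did not exceed the median of the negative control probe sets on their arrays, and cross-reaction among the similar mu-class genes was not analysed here. Gpx4 (gene 625249), the peroxidase that reduces lipid hydroperoxides in membranes and restrains ferroptosis, read 12.97, 12.96 and 11.64 in WT and 11.50, 11.74, 11.54 and 11.40 in KO. Its difference of -0.98 ± 0.31 (SE; limma, adjusted p = 0.223) shrank to -0.10 against WT 3, which lay within the KO range. Gpx1, the cytosolic peroxidase, and Gpx3, the secreted one, differed by 0.09 and 0.16, and against WT 3 by 0.03 and 0.29.

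**Figure D3:**
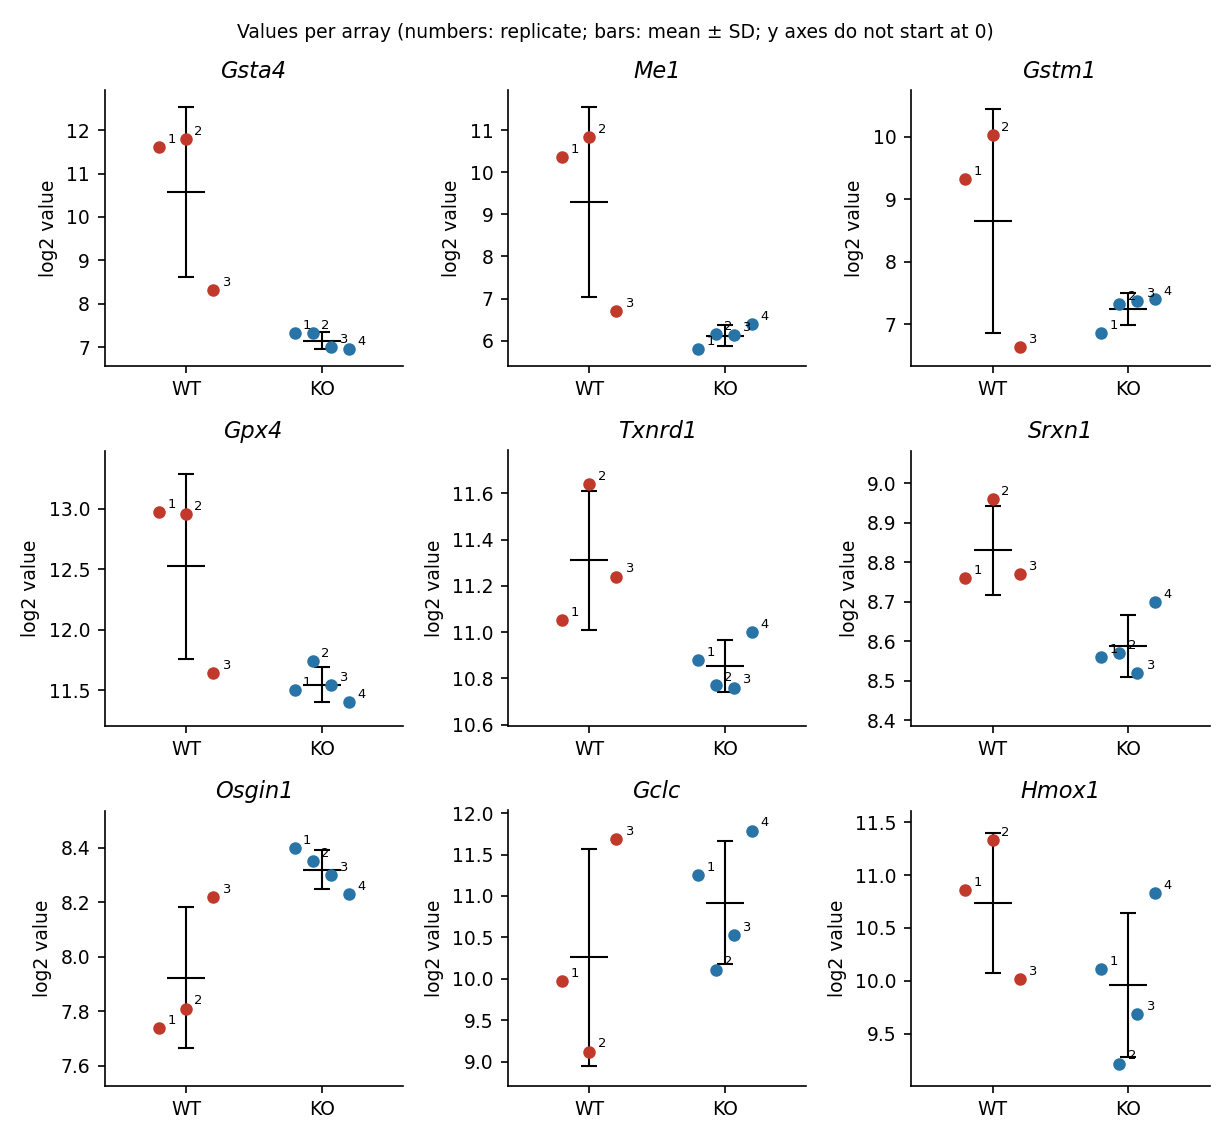
Log2 values (y) of 9 genes on each WT (red) and KO (blue) array, with the replicate number beside each point and bars for the mean ± SD (n = 3 WT, n = 4 KO). In Gsta4, Me1, Gstm1 and Gpx4 the array WT 3 sits near the KO arrays and WT 1 and WT 2 well above; in Txnrd1 and Srxn1 all 3 WT arrays sit above KO, in Osgin1 below, and Gclc and Hmox1 spread widely within KO.

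In 2 genes of the thioredoxin system, Txnrd1 and Srxn1, all WT arrays stood above all KO arrays and the difference from KO was of like size for WT 3 and for the 3 WT arrays together; neither passed. Txnrd1 (gene 50493), the cytosolic selenoprotein that reduces thioredoxin with NADPH, read 11.05, 11.64 and 11.24 in WT and 10.88, 10.77, 10.76 and 11.00 in KO. Every WT array exceeded every KO array, by as little as the step from WT 1 to KO 4. The difference of -0.46 ± 0.15 (SE; limma, adjusted p = 0.223) was -0.39 against WT 3 alone (limma, unadjusted p = 0.0345) and -0.49 without WT 3 (limma, adjusted p = 0.0626). Srxn1 (gene 76650), sulfiredoxin, which repairs overoxidised peroxiredoxins, read 8.76, 8.96 and 8.77 in WT and 8.56, 8.57, 8.52 and 8.70 in KO. Its groups were also apart, with a difference of -0.24 ± 0.10 (SE; limma, adjusted p = 0.248) and of -0.18 against WT 3. Over all 16 alternatives the smallest adjusted p in limma was 0.0626 for Txnrd1 and 0.128 for Srxn1. With each array centred on its median the groups overlapped for both, and with quantile normalization for Srxn1. Txn1, the cytosolic thioredoxin, read 12.76, 12.71 and 12.98 in WT and 12.93, 12.94, 12.90 and 12.85 in KO, so that WT 1 and WT 2 lay below and WT 3 above every KO array. Its difference was 0.09, and -0.08 against WT 3.

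Peroxiredoxins, the abundant thiol peroxidases that thioredoxin recharges, read lower in KO in 4 of 4 measured members, with differences of -0.17 to -0.44 and 0 calls. Prdx1 (gene 18477), the cytosolic form, read 12.34, 12.76 and 12.04 in WT and 11.80, 12.06, 11.92 and 11.98 in KO. WT 1 and WT 2 were above the KO range and WT 3 was within it. The difference was -0.44 ± 0.17 (SE; limma, adjusted p = 0.233) and -0.10 against WT 3. Prdx2, a second cytosolic form, differed by -0.30, Prdx3, the mitochondrial form, by -0.17, and Prdx4, the form of the endoplasmic reticulum, by -0.24. Against WT 3 alone these were -0.12, -0.17 and -0.28, and WT 3 lay above every KO array only for Prdx4.

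Some antioxidant enzymes work inside mitochondria, the organelle that OPA1 shapes. Of Sod2, Prdx3, Txn2 and Txnrd2, the dismutase, peroxiredoxin, thioredoxin and thioredoxin reductase of mitochondria, 3 of 4 read lower in KO, with a median difference of -0.15 and 0 calls. Sod2 read 10.02, 10.00 and 9.92 in WT and 9.73, 10.02, 9.88 and 9.80 in KO, a difference of -0.12 ± 0.10 (SE; limma, adjusted p = 0.493). Txn2 differed by -0.41, with WT 1 and WT 2 above the KO range, and Txnrd2 by 0.06. WT 3 lay inside the KO range for all 4, and against it Sod2 differed by -0.07, Txn2 by -0.15 and Txnrd2 by 0.01. KO 1 and KO 4 were the low KO arrays for each, and the mean of the 4 genes relative to the KO mean was -0.14 and -0.23 there, against 0.25 and 0.11 on KO 2 and KO 3. This was not particular to mitochondrial enzymes: Keap1, Cat, Prdx2, Prdx4 and Pgd were also lowest on KO 1 and KO 4. Nor was it shared by all members, as Gclc and Hmox1 were highest on KO 4.

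Of the enzymes that remove superoxide and hydrogen peroxide, Cat (gene 12359), peroxisomal catalase, read 12.15, 11.66 and 12.48 in WT and 12.30, 12.59, 12.56 and 12.34 in KO. WT 1 and WT 2 were lower than every KO array and WT 3 was not. The difference of 0.35 ± 0.19 (SE; limma, adjusted p = 0.321) was -0.03 against WT 3. Sod1, the cytosolic dismutase, differed by 0.11 and by -0.02 against WT 3.

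In the group for quinones, heme and iron, 4 of 6 genes read lower in KO and 0 passed. Blvrb (gene 233016), biliverdin reductase B, read 10.05, 10.51 and 9.50 in WT and 9.25, 9.32, 9.52 and 9.35 in KO. WT 3 lay just below the highest KO array, and the difference of -0.66 ± 0.22 (SE; limma, adjusted p = 0.223) was -0.14 against WT 3. Osgin1 (gene 71839), an oxidative stress-induced growth inhibitor, was the member with all KO arrays above all WT arrays. It read 7.74, 7.81 and 8.22 in WT and 8.40, 8.35, 8.30 and 8.23 in KO, and WT 3 was almost level with KO 4. Its difference was 0.40 ± 0.13 (SE; limma, adjusted p = 0.223) and 0.10 against WT 3 alone.

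Nqo1, the quinone reductase that is a standard readout of NRF2, read 7.02, 6.92 and 7.18 in WT and 7.33, 7.08, 7.32 and 6.65 in KO. All WT values lay inside the KO range, and KO 4 did not exceed its negative control median. The difference was 0.05 ± 0.18 (SE; limma, adjusted p = 0.877), and -0.09 against WT 3. The ferritin chains Ftl1 and Fth1, which store iron, differed by -0.15 and -0.22 with all 7 arrays and by 0.07 and 0.02 against WT 3.

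Hmox1 (gene 15368), heme oxygenase 1, which opens the heme ring, read 10.86, 11.33 and 10.02 in WT and 10.11, 9.22, 9.69 and 10.83 in KO. KO 4 came close to WT 1, and WT 3 lay mid-range among the KO arrays. The difference was -0.78 ± 0.42 (SE; limma, adjusted p = 0.321) and -0.06 against WT 3.

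For NADPH supply 3 of 5 genes were measured. Me1 (gene 17436) encodes the malic enzyme of the cytosol and read 10.36, 10.84 and 6.71 in WT and 5.79, 6.15, 6.12 and 6.40 in KO. All WT arrays were above all KO arrays, but the 4 KO values did not exceed the negative control medians of 6.49 to 6.88 on those arrays, so the KO level is only a bound. The measured difference was -3.19 (limma, adjusted p = 0.223), and -4.49 without WT 3 (limma, adjusted p = 1.49e-06). With the control medians as the KO level, the WT mean was 5.97-fold higher, and the mean of WT 1 and WT 2 at least 14.7-fold. These folds were not tested. WT 3 itself, at 6.71, was level with its own control median. The 5.97-fold is therefore not a strict bound, and no fold is given against WT 3 alone. Pgd and Taldo1, of the oxidative and non-oxidative pentose phosphate branches, differed by -0.16 and 0.35. Against WT 3 they differed by 0.06 and 0.00.

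Within the KO group, Gclc and Hmox1 varied far more than the other members. Their KO standard deviations were 0.75 and 0.69, each larger than in 99.8% of all genes, where the median over the 33 members was 0.18. Both were highest on KO 4, then KO 1, KO 3 and KO 2. The mean of 7 markers of mature dendritic cells had the same order, 10.67, 10.15, 10.01 and 9.67 on KO 4, KO 1, KO 3 and KO 2, and was 11.30, 11.07 and 10.74 on WT 1 to 3. Summed linear signal of that list was 7381 to 12298 in KO and 13188 to 20821 in WT, none of its 7 genes was at or under the control median, and 2 did not overlap between groups, both lower in KO. The means of 8 cDC2 markers (8.47, 8.46, 8.34 and 7.91) and of 5 B cell markers (8.15, 8.03, 7.93 and 7.70) followed that order as well. T and NK cell markers (8.52, 7.94, 8.07 and 6.99) and neutrophil markers (7.88, 7.73, 7.78 and 7.48) were also highest on KO 4 and lowest on KO 2. The means of the cDC1, melanocyte, macrophage and erythroid lists were not highest on KO 4. The macrophage list was split, however. Its members Spic and Vcam1 followed the order of Gclc and Hmox1, and Csf1r was also highest on KO 4 and lowest on KO 2. The other macrophage markers were highest on KO 1 or KO 3. In WT neither Gclc nor Hmox1 followed the mature dendritic cell markers, Gclc being highest on WT 3 and Hmox1 on WT 2. The 4 KO arrays are too few for a correlation, and the part of any of these lists in the Gclc and Hmox1 values was not tested.

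Other marker lists moved between arrays as well. The 8 measured cDC2 markers had means of 8.13, 9.74 and 8.69 in WT and 7.91 to 8.47 in KO, with 5 lower and 3 higher in KO and 3 without overlap, all lower. Their summed signal was 4121 to 17820 in WT, highest on WT 2, where Cd209a read 13.23 and Mgl2 11.06, and 3006 to 4050 in KO; at most 1 was at or under the control median on any array. Macrophage markers, relevant to Hmox1 and Blvrb because heme-recycling macrophages express both, had means of 7.74, 9.09 and 8.68 in WT and 7.66 to 8.24 in KO. Of the 10 measured, 5 were lower and 5 higher in KO, 1 without overlap; summed signal was 2906 to 9731 in WT and 2370 to 3674 in KO, with at most 1 at or under the control median on any array. The 5 measured erythroid markers, of cells known to be rich in Prdx2 and Cat, were all higher in KO, with means of 7.65 to 8.11 in WT and 7.89 to 8.40 in KO and summed signal of 1343 to 1683 and 1615 to 2137; at most 1 was at or under the control median. Their part in the results was not tested.

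**Figure D4:**
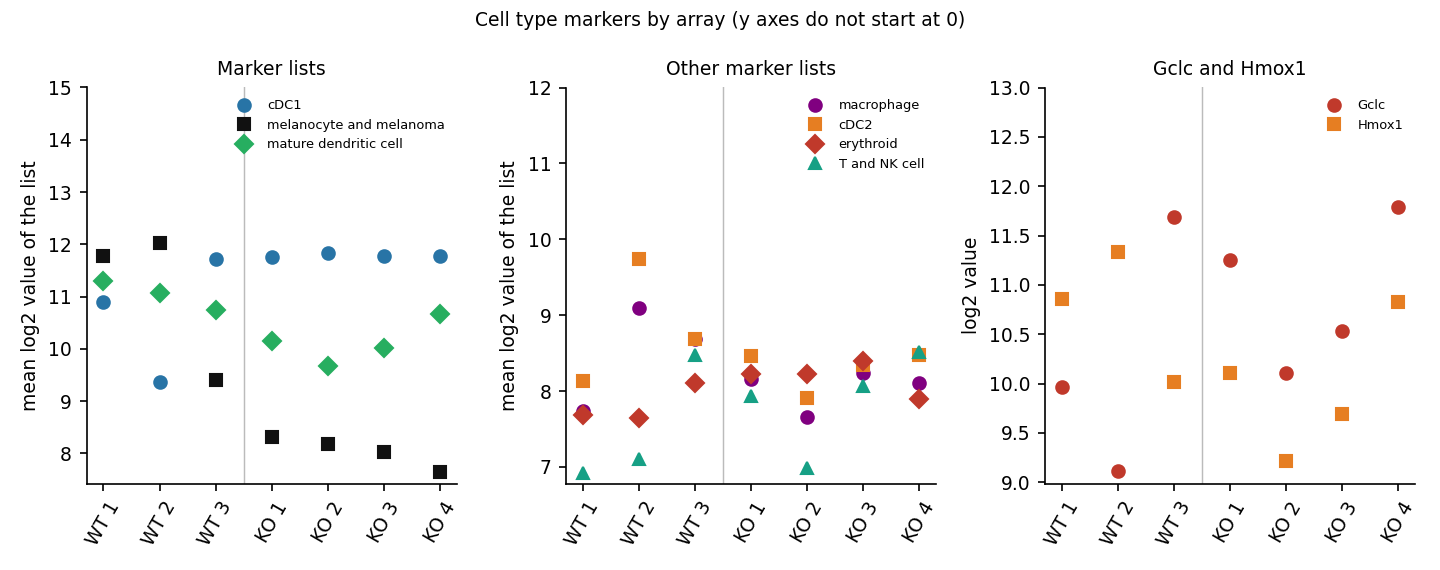
Mean log2 value (y) of marker lists on each array (left and middle) and log2 values of Gclc and Hmox1 (right). Melanocyte markers are highest on WT 1 and WT 2 and cDC1 markers lowest on WT 2. Among KO arrays the mature dendritic cell, cDC2, and T and NK cell markers, Gclc and Hmox1 all peak on KO 4 and are lowest on KO 2.

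Beyond the members, 106 of 111 further genes of glutathione, thioredoxin, NADPH, iron and NRF2 control were measured. Of them 69 read lower in KO (65.1%, against 40.1% of all genes), with a median difference of -0.12, and limma called 0 (0% of all genes). Against WT 3 alone 65 read lower (61.3%, against 44.7%). In 16 (15.1%, against 5.92%) every KO array lay below every WT array, and in 1 (0.943%, against 7.85%) above. WT 3 lay above the KO range for 30 of them (28.3%, against 18.1%) and below it for 8 (7.55%, against 24.2%). The smallest unadjusted p on the lower side belonged to Gsta2, Sqstm1, Chac2 and Gstp2.

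Gsta2, an alpha-class transferase like Gsta4, read 10.97, 11.20 and 7.07 in WT and 5.61, 5.39, 5.58 and 5.49 in KO. The measured difference was -4.23 (limma, adjusted p = 0.223), and -1.56 against WT 3. All 4 KO values lay under the negative control medians, so only a bound can be given. With those medians as the KO level, the WT mean was at least 8.1-fold higher, and WT 3 alone at least 1.27-fold. These folds were not tested. Sqstm1, which encodes p62, an autophagy receptor that binds KEAP1, read 12.79, 12.62 and 12.44 in WT and 12.17, 12.10, 12.06 and 12.30 in KO. All WT arrays exceeded all KO arrays for Sqstm1, and its difference of -0.46 was -0.28 against WT 3. Chac2, which degrades glutathione, differed by -0.63 (-0.37 against WT 3), again with no overlap. Gstp2, of the pi class, differed by -1.23 (-0.29 against WT 3), with overlap.

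On the higher side the smallest p belonged to Nadk2, Gsto1, Cbr3 and Ggt5. Cbr3, a carbonyl reductase, read 7.01, 6.81 and 8.96 in WT and 8.74, 8.99, 8.94 and 8.44 in KO, a difference of 1.19 that was -0.18 against WT 3. Nadk2, the mitochondrial NAD kinase, differed by 0.70, Gsto1, an omega-class transferase, by 0.71 and Ggt5, a gamma-glutamyl transferase, by 0.67. Against WT 3 alone these 3 differed by 0.08, 0.01 and 0.00.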

How the data were processed

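RNA of 3 WT and 4 KO samples was measured on whole-transcript arrays. The authors deposited log2 values for 28846 probe sets, which the submitters' processing notes credit to RMA in Affymetrix Expression Console 1.1; the set of arrays normalized jointly is not stated there. RMA compresses dim signals, so differences of dim genes are understated. Precision is limited by the small number of arrays.

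Of 22206 transcript probe sets 19572 had 1 gene symbol, 0 had several and 2634 were unnamed; the probe set with the highest mean per symbol was kept (19505 genes). The 2 groups were compared in limma 3.58.1 under R 4.3.3 (lmFit, eBayes, no covariate; Benjamini-Hochberg over all genes, threshold 0.05). Background level is the median of 5222 negative control probe sets per array (6.19 to 6.88). That level is lenient, as 5% of these probe sets read above 9.37 to 10.19, depending on the array. Nfe2l2, Gclm, Srxn1, Osgin1 and Opa1, among others, lay under that upper level on every array. On simulated data for KO against WT over 19505 genes, the fit recovered 68% of genes shifted by 1 log2 and 88% of those shifted by 2 log2, and 5 unshifted genes were called; of the 861 genes with a measured difference of at least 1, 0 were called, so this recovery does not give the power of the real comparison. Opa1 was also tested by exact permutation.

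The members, the lists and the rule for named genes were chosen with earlier results of these data known. The rule gave array by array the members without overlap, those differing by at least 1, Nfe2l2, Keap1 and the smallest p per role, and 4 other pathway genes per direction; Gclc, Gpx4, Hmox1, Nqo1, Sod2 and Txn1 were added after their values were seen. Replicate numbers are shared by WT and KO but did not pair the arrays. Alternatives were leaving out arrays, the replicate block, quantile normalization, median centring, dropping dim probe sets (mean of at most 8.09), other probe sets, and other variance models.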

Additional observations from a re-analysis of the deposited data

Results flagged for a closer look

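In the 4 KO arrays 2 of the 33 genes had an array far from the other 3, by the ratio of its gap to the range; chance gives such an array in about 1 of 20 groups. Gsr read 10.11 on KO 3, against 9.59 to 9.64 on the others. Gstm1 read 6.86 on KO 1, against 7.33 to 7.40 on the others.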

How the results depend on the processing

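The lower median of the 33 genes held its sign in all 16 alternatives (-0.22 to -0.07). In them 20 to 22 of 33 genes were lower in KO, or 18 of the 28 left without dim probe sets. Not all 16 could change a difference. The trended and robust variance model leaves differences as they are, and the other probe sets gave the members the same values. The replicate block gave the same differences as leaving out KO 4. Within these limits 19 genes kept their direction wherever they were measured, 15 lower and 4 higher. Gss, Gpx3 and Me1 had no value without dim probe sets. Leaving out 1 array at a time gave 0 to 11 called members, all 11 without WT 3, 0 to 4931 called genes, 4 to 15 members wholly lower in KO and 1 to 6 wholly higher. Without WT 3 these were 15 (45.5%, against 20.6% of all genes) and 6 (18.2%, against 25.4%), and without KO 2 9 were wholly lower (27.3%, against 8.42%). Array weights called 8 members (Gss, Gpx4, Gsta4, Gstm1, Prdx1, Blvrb, Me1 lower and Osgin1 higher) and 4458 genes. Wholly higher members numbered 4 with WT 1 and WT 2 left out (12.1%, against 24.2% of all genes), 2 with median centring (6.06%, against 11.1%) and 2 with quantile normalization (6.06%, against 8.98%); wholly lower members numbered 2 with median centring, Gsta4 and Me1 (6.06%, against 5.13%). The cause was not tested.

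Directions turned mostly for small differences. With WT 1 and WT 2 left out, the values were -0.77 for Gclc, 0.03 for Gsr, 0.61 for Gstm1, -0.08 for Txn1, -0.02 for Sod1, -0.03 for Cat, -0.09 for Nqo1, 0.07 for Ftl1, 0.02 for Fth1, 0.06 for Pgd and 0.00 for Taldo1. With 1 array left out, ranges crossed 0 for Keap1 (-0.10 to 0.05), Mafg (-0.07 to 0.06), Gsr (-0.18 to 0.02), Nqo1 (-0.02 to 0.20) and Txnrd2 (-0.05 to 0.13). Keap1 was 0.03 with median centring and 0.04 with quantile normalization. With array weights Mafg was -0.03 and Gsr 0.02. Same-numbered arrays did not deviate together (correlations of -0.04, 0.05 and -0.02); with the replicate number as a block, to which KO 4 adds nothing, 0 members were called, the median was -0.10, Keap1 was 0.05 and Mafg -0.07. Opa1 ranged from -1.67 to -0.99 and was not called (limma, adjusted p = 0.0764 to 0.813). Signal over background, taken as the control median, limits Me1, Gstm1 and Nqo1, and Gsta4 on the KO arrays lay close above it. By the upper level of the negative controls it would also limit other genes, among them Nfe2l2, Gclm, Srxn1, Osgin1 and Opa1.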
